A study of Mus musculus with 12 samples.

Results

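IFN-γ-treated oligodendrocyte precursor cells (OPCs) were compared directly with dexamethasone-treated (Dexa) OPCs, replicate number by replicate number. The 4 IFNg and 4 Dexa libraries make 8 of the 12 libraries of the experiment, and the other 4 are untreated cultures (Ctr), used here to tell on which side of the untreated level each treatment lies. All cells were primary mouse OPCs, the proliferating progenitors of the glia that make myelin, taken from pooled brains of P4-P6 pups and selected either as Sox10-GFP-positive cells by FACS or with CD140a microbeads, so a library stands for a pool of pups and not for 1 animal. Every group grew in the same proliferation medium with the mitogens PDGFaa and bFGF. Dexa cultures received 1 µM dexamethasone and IFNg cultures 100 ng/ml IFN-γ, both for 48 h, and no culture received both. The 4 replicates of a group came from different litters. Whether same-numbered cultures of different groups shared a litter is not given. The deposited table of Dexa replicate 3 is cut off part-way, so 11 libraries entered the fit and this library was kept for the genes it lists whole.

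IFN-γ is a cytokine of T cells and natural killer cells. Its receptor signals through the kinases JAK1 and JAK2 to promoters with GAS elements and switches on IRF1, antigen presentation genes, guanylate-binding proteins and chemokines. Dexamethasone is a synthetic ligand of the glucocorticoid receptor, encoded by Nr3c1, a nuclear receptor that binds glucocorticoid response elements and raises genes such as Fkbp5, Per1, Tsc22d3 and Zbtb16. Glucocorticoids are known to dampen inflammation, and both signals reach oligodendroglia in inflamed tissue.

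Reads in genes ranged from 19209063 to 52074652 in the 11 whole libraries. Levels are given as CPM, read counts scaled to library size with TMM factors, and differences as log2 fold changes with their standard error (SE). The label was checked against OPC markers. The summed level of 16 OPC markers, among them Pdgfra, Cspg4, Olig2 and Sox10, was 4524 to 13206 CPM, and replicate 1 was the lowest in every group. Of 13 microglia and macrophage markers, 11 stayed under 1 CPM in every library, and the highest read count of Tyrobp and of Trem2 in any library was 2 and 3. Markers of astrocytes summed to 614 to 1998 CPM and those of neurons to 913 to 1555 CPM. Map2 gave most of the neuron sum, with 31192 reads in Ctr replicate 1 against 71 for Rbfox3. Slc1a3 and Aldoc gave most of the astrocyte sum, with 27729 and 15305 reads in that library against 22 for Gfap. The 11 endothelial, mural and fibroblast markers summed to 3.1 to 12.7 CPM.

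Between IFNg and Dexa, 6089 of 18386 tested genes (33.1%) differed at an adjusted p under 0.05. Of these, 3016 (16.4% of tested genes) were higher in IFNg and 3073 (16.7%) were lower. A gap of at least 1 on the log2 scale was found for 903 of the higher and 775 of the lower genes. In the same fit 31% of genes differed between IFNg and Ctr (15.1% higher and 15.9% lower with IFN-γ). Between Dexa and Ctr 1.5% differed (1.24% higher and 0.256% lower with Dexa). Both comparisons use the same Ctr libraries. For 3601 genes (19.6%) no IFNg library overlapped a Dexa library. Without the replicate block 1576 genes differed between IFNg and Dexa, 63.7% of them higher in IFNg, and Dexa against Ctr gave 24 calls. With DESeq2 and the block 5670 genes differed between IFNg and Dexa. The 275 calls for Dexa against Ctr rested on single libraries more than the others, with 135, 121 and 140 calls without Ctr replicates 1, 2 and 4, and 101 and 78 without Dexa replicates 1 and 2.

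A gap between the treatments larger than either change against Ctr means that the 2 treatments lie on opposite sides of Ctr. That held for 4518 of the 6089 called genes (74.2%), while the estimates had opposite signs in 51.9% of all tested genes. The gap is the difference of the 2 changes, so calling genes on the gap favours opposite signs. The excess over 51.9% is therefore in part built in. In most of the 4518 genes 1 side was small. The median size of the Dexa change among them was 0.14 on the log2 scale, against 0.37 for the IFN-γ change, and in 281 genes both changes were at least 0.5. Without the replicate block 1070 genes met this definition.

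**Figure D1:**
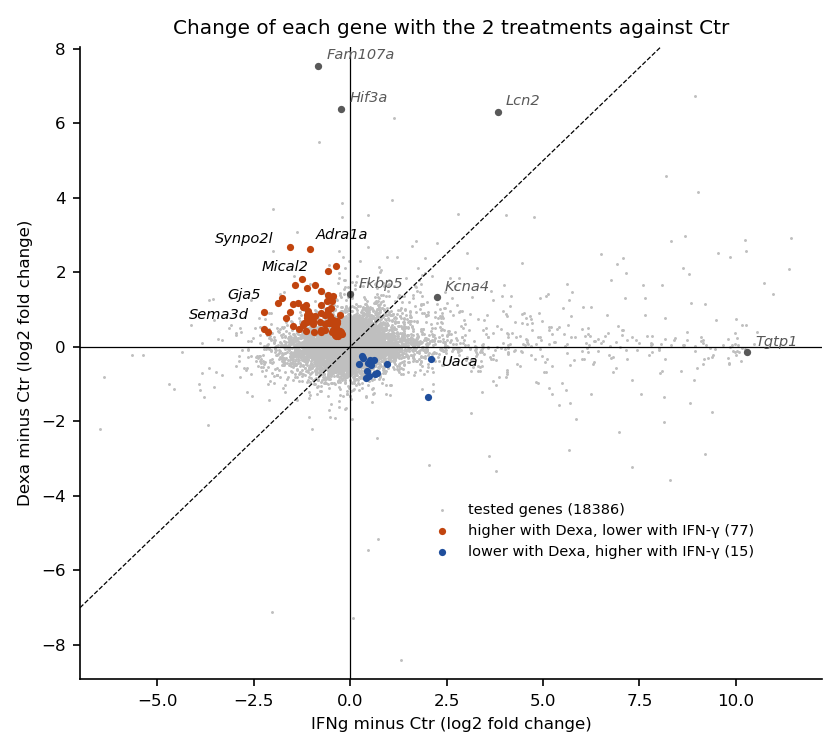
Log2 fold change of each of 18386 tested genes with IFN-γ (x axis) and with Dexa (y axis), both against Ctr, with the dashed line where both are equal. The 77 genes called higher with Dexa and lower with IFN-γ sit in the upper left and the 15 called the other way in the lower right. Fam107a and Hif3a stand high on the Dexa axis, while Tgtp1 stands far out on the IFN-γ axis with a Dexa value near 0.

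A stricter set was called in all 3 comparisons, with IFN-γ and Dexa moving the gene in opposite directions against Ctr. It held 92 genes, 90 of them protein coding. In 77 the gene rose with Dexa and fell with IFN-γ, and in 15 it fell with Dexa and rose with IFN-γ. The gap between the treatments ranged from 0.55 to 4.23 on the log2 scale, with a median of 1.54, and was at least 1 in 72 genes. In 46 of the 92 the Dexa change was the larger of the 2 changes. Ctr lay between the treatments in each of replicates 1, 2 and 4 for 89 genes. For 64 of the 92 no IFNg library overlapped a Dexa library, and for 20 all Ctr libraries also lay strictly between the 2 treated groups, a pattern found in 109 (0.593%) of all tested genes. The counts of 89, 64 and 20 come from the libraries that chose the set, so they describe it and are no support for it.

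This set depends on the pairing by replicate number and on single libraries. Only 3 of its genes, Gpd1, Zbtb16 and Synpo2l, were called in all 3 comparisons without the replicate block, and DESeq2 with the block called 150 genes, 86 of them shared. The count was 39 without Ctr replicate 1, 36 without Ctr replicate 2, 37 without Ctr replicate 4, 37 without Dexa replicate 1, 23 without Dexa replicate 2 and 59 without IFNg replicate 2. The 2 changes kept opposite signs in all 92 genes whichever of the 11 libraries was left out, and 17 genes kept all 3 calls each time. Among these 17 were Agt, Arhgef10, Col5a3, Fry, Galnt16, Gap43, Gpd1, Hip1, Mfsd2a, Mical2, Phactr3, Pik3r1, Sema3d, Synpo2l, Usp54 and Zbtb16.

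The promoters of 59 of the 92 genes are in the RefSeq table used (GRCm38.p6, 250 bases before to 50 after a start). Both strands were searched for the letters of a GAS element (TTCNNNGAA), an interferon-stimulated response element core (GAAANNGAA) and a glucocorticoid response element core (ACANNNTGT). Of the 59 promoters 3.39% held GAS letters, 5.08% the interferon-stimulated letters and 5.08% the glucocorticoid letters, against 9.55%, 9.76% and 7.9% of the 27025 genes in the table. Of the 11621 tested genes with a promoter in the table, 8.19%, 8.46% and 5.34% held them. Distant elements were not searched. The 250 bases before a start are shown for Bcl6, 1 of 2 members with GAS letters, and Sema3d, the member with both an interferon-stimulated and a glucocorticoid match. Irf1, a transcription factor gene and early IFN-γ target, is set beside them as a gene that IFN-γ raised. Capitals mark the matched letters, 5′ to 3′ on the gene's strand. A match is a description and not a shown binding site.
Irf1 (chr11:53769764-53770013, plus strand, GAS): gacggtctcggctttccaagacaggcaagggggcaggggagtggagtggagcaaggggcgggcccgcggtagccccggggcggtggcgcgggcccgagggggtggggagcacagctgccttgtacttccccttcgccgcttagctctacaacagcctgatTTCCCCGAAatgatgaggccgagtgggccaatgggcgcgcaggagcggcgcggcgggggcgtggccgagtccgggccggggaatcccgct
Bcl6 (chr16:23988853-23989102, minus strand, GAS): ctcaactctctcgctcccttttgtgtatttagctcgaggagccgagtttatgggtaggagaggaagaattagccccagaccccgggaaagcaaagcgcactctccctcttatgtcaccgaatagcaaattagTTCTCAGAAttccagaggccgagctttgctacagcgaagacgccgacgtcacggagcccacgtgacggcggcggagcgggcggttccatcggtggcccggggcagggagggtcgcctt
Bcl6, second start (chr16:23981284-23981533, minus strand, 3 GAS): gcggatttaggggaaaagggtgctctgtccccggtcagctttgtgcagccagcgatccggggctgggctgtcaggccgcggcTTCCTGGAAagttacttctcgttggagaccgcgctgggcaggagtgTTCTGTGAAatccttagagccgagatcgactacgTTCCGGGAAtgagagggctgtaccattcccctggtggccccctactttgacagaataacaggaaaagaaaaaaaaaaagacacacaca
Sema3d (chr5:12382916-12383165, plus strand, interferon-stimulated then glucocorticoid letters): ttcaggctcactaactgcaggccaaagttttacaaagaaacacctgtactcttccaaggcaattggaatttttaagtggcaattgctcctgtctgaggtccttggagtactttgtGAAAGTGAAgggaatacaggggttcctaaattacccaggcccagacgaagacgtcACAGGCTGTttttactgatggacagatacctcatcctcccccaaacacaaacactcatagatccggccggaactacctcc
Irf1 and Bcl6 both carry GAS letters, and their levels moved in opposite directions with IFN-γ. Irf1 stood at 10.1 to 12.4 CPM in Ctr, 8.74 to 11.6 in Dexa and 673 to 726 in IFNg, with a log2 gap of 6.12 ± 0.09 between IFNg and Dexa (adjusted p = 4.34e-11).

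Of 26 tested genes of a glucocorticoid response list, 4 were called in opposite directions, against 92 of all 18386 tested genes. Gpd1 (ENSMUSG00000023019, chr15:99717515-99725005, plus strand), glycerol-3-phosphate dehydrogenase, which links glycolysis to glycerolipid synthesis, was the most even of them. Its level was 82.7, 90.0 and 82.6 CPM in Dexa replicates 1, 2 and 4, 31.2, 31.8, 28.6 and 26.2 in Ctr replicates 1 to 4, and 19.2, 18.7, 16.5 and 15.5 in the IFNg replicates. The 3 groups did not overlap. Dexa raised it by 1.51 ± 0.07 (adjusted p = 3.48e-06), IFN-γ lowered it by -0.75 ± 0.06 (adjusted p = 9.58e-06), and the gap was -2.27 ± 0.07 (adjusted p = 3.43e-09).

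Zbtb16 encodes the transcriptional repressor PLZF. Its level was 20.8, 18.8 and 24.6 CPM in Dexa, 7.92, 7.33, 9.18 and 9.24 in Ctr and 5.68, 4.95, 6.36 and 5.65 in IFNg, again without overlap. The gap was -1.96 ± 0.09 (adjusted p = 8.02e-08), made of 1.39 ± 0.08 with Dexa and -0.57 ± 0.08 with IFN-γ.

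Bcl6, a repressor known from germinal centre B cells, stood at 37.6, 40.4 and 42.6 CPM in Dexa, 26.2, 25.6, 27.5 and 24.1 in Ctr and 17.9, 16.9, 20.5 and 21.9 in IFNg. The groups were apart, with a gap of -1.09 ± 0.09 (adjusted p = 7.92e-06). Cebpd, a transcription factor induced in acute responses, had 11.2, 7.58 and 4.99 CPM in Dexa, 3.84, 3.52, 1.43 and 2.72 in Ctr and 2.93, 1.99, 1.22 and 2.10 in IFNg. Its Ctr and IFNg libraries overlapped across replicates, and the fall with IFN-γ of -0.48 ± 0.16 passed in edgeR (adjusted p = 0.0476) but not in DESeq2 with the block (adjusted p = 0.0619). Cebpd kept its opposite-direction call in 3 of the 11 fits that each left out a library.

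**Figure D2:**
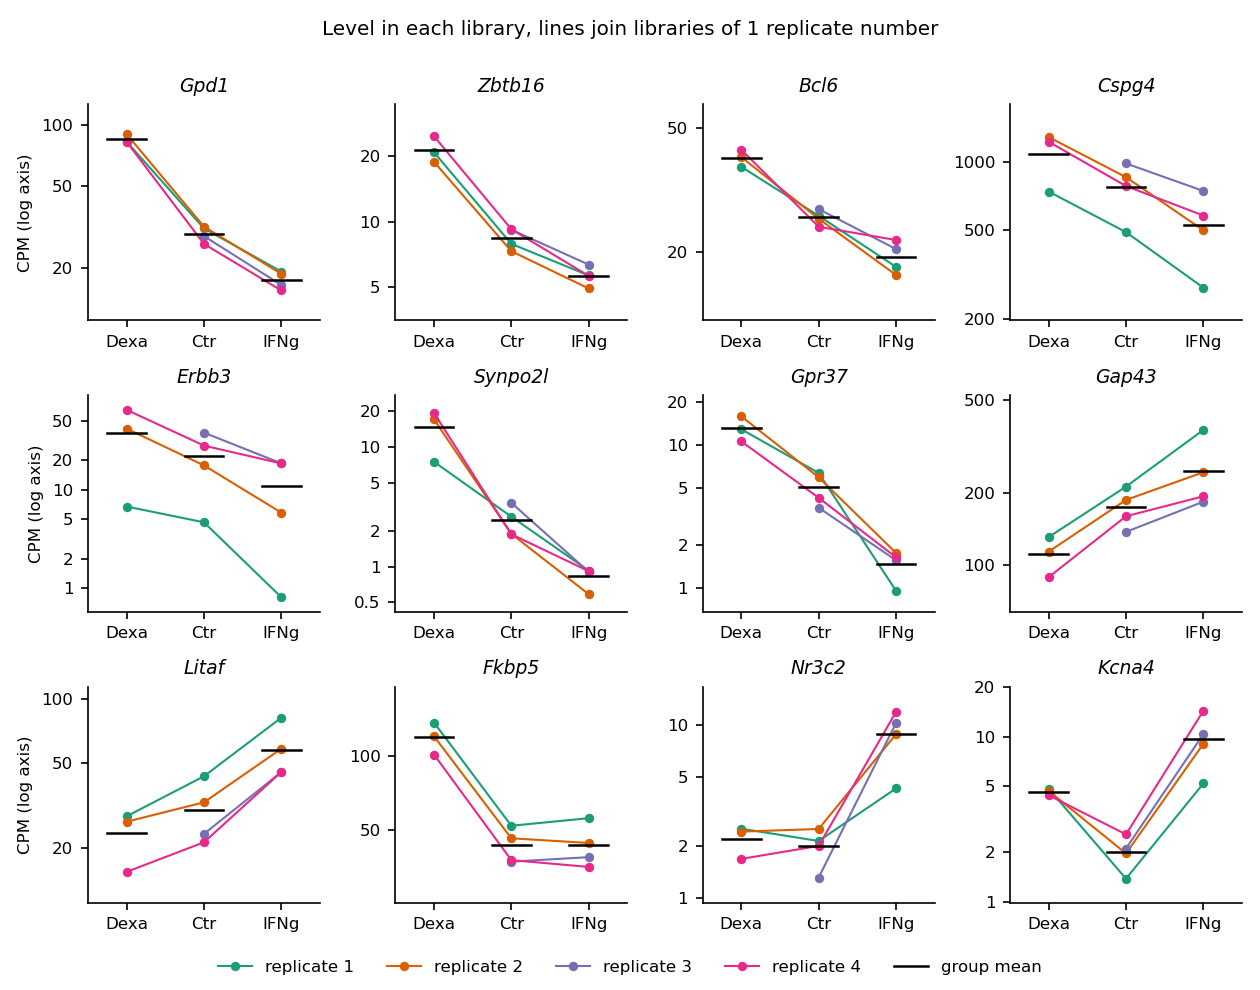
CPM on a log axis in each library of 12 genes, with Dexa, Ctr and IFNg from left to right, 1 colour and line per replicate number and a black bar at each group mean. Gpd1, Zbtb16, Bcl6, Cspg4, Erbb3, Synpo2l and Gpr37 fall from Dexa to Ctr to IFNg in every replicate number with 3 libraries, Gap43 and Litaf climb, Fkbp5 parts only at Dexa, Nr3c2 only at IFNg, and Kcna4 is above Ctr with both.

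Of the 12 genes of the set with the largest smaller change, 11 are described next. They were picked after their values were seen, so the values are a description of the extremes. Synpo2l (chr14:20658946-20668354, minus strand), an actin-associated protein related to synaptopodin, had the widest gap. Its level was 7.57, 17.2 and 19.4 CPM in Dexa, 2.62, 1.88, 3.43 and 1.87 in Ctr and 0.926, 0.587, 0.904 and 0.916 in IFNg. No groups overlapped, and the gap was -4.23 ± 0.34 (adjusted p = 8.67e-06). Adra1a, an α1-adrenergic receptor, had 8.39, 5.06 and 3.10 CPM in Dexa, 1.19, 1.06, 0.602 and 0.524 in Ctr and 0.747, 0.252, 0.487 and 0.191 in IFNg, a gap of -3.66 ± 0.27 (adjusted p = 3.59e-06). Dexa stood clear of both other groups, Ctr and IFNg overlapped, and most of the gap lay on the Dexa side, at 2.62 ± 0.24.

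Several of them encode receptors or membrane proteins. Gpr37, an orphan G protein-coupled receptor of the oligodendrocyte lineage, had 13.0, 16.0 and 10.7 CPM in Dexa, 6.40, 5.97, 3.66 and 4.29 in Ctr and 0.956, 1.76, 1.57 and 1.64 in IFNg. The groups were apart and the gap was -3.08 ± 0.22 (adjusted p = 3.5e-06). Gja5, the gap junction protein connexin 40, had 44.8, 26.4 and 35.2 CPM in Dexa, 17.3, 11.3, 7.13 and 17.3 in Ctr and 8.33, 2.57, 1.57 and 2.98 in IFNg, with a gap of -3.05 ± 0.22 (adjusted p = 3.18e-06). IFNg replicate 1 lay above Ctr replicate 3, so Ctr and IFNg overlapped while Dexa stood clear.

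Erbb3, the neuregulin receptor subunit, had 6.77, 42.1 and 65.3 CPM in Dexa replicates 1, 2 and 4, 4.67, 17.7, 38.3 and 28.2 in Ctr replicates 1 to 4 and 0.807, 5.87, 18.6 and 18.6 in IFNg. The groups overlapped, and replicate 1, which also had the lowest OPC marker sum, was the lowest in each. Within each replicate number the order was Dexa, Ctr, IFNg, and the gap was -2.31 ± 0.24 (adjusted p = 4.33e-05). Its Dexa rise did not pass in DESeq2 with the block (adjusted p = 0.108), and the opposite-direction call held in 3 of the 11 leave-outs. Trpc6, a cation channel, reached at most 4.04 CPM in Dexa and 0.522 in IFNg, with a gap of -3.10 ± 0.36 (adjusted p = 0.00011) and the opposite-direction call in 4 of the 11 leave-outs.

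Secreted and matrix proteins made up others of these genes. Col5a3, a fibrillar collagen chain, had 64.7, 32.6 and 19.9 CPM in Dexa, 26.6, 16.4, 8.52 and 9.99 in Ctr and 7.68, 5.12, 3.93 and 4.24 in IFNg, a gap of -2.63 ± 0.15 (adjusted p = 4.36e-07). IFNg was below every other library, whereas Dexa and Ctr overlapped. Agt, angiotensinogen, had 17.6, 6.49 and 7.04 CPM in Dexa, 6.94, 2.19, 1.39 and 2.03 in Ctr and 3.79, 0.867, 0.696 and 0.649 in IFNg, a gap of -2.70 ± 0.19 (adjusted p = 3.24e-06). Replicate 1 was high in all 3 groups. Hapln1, a link protein that binds hyaluronan, and Ccdc3, a secreted protein, were lower still, with group means of 1.71 and 4.11 CPM in Dexa and 0.222 and 0.604 in IFNg. Their gaps were -3.09 ± 0.43 and -2.52 ± 0.25 (adjusted p = 0.000362 and 3.98e-05). AC154912.5, a transcript inside an intron of the locus of Fkbp5, had a gap of -2.28 ± 0.24. Of the 11 leave-outs, 2 kept the opposite-direction call of Hapln1, 4 that of Ccdc3 and 4 that of AC154912.5, and the IFN-γ fall of Hapln1 did not pass in DESeq2 with the block (adjusted p = 0.0575).

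Sema3d and the OPC genes of the set had higher levels. Sema3d, a secreted guidance protein, had 25.1, 72.0 and 142 CPM in Dexa, 11.8, 41.0, 67.6 and 77.9 in Ctr and 2.24, 9.53, 15.0 and 15.6 in IFNg. No IFNg library reached a Dexa library, and the gap of -3.15 ± 0.09 (adjusted p = 2.06e-09) lay mostly on the IFN-γ side. Cspg4, the NG2 proteoglycan that marks OPCs, had 739, 1293 and 1232 CPM in Dexa, 487, 857, 987 and 782 in Ctr and 276, 497, 744 and 578 in IFNg. Its groups overlapped across replicates and were ordered alike within each replicate number, with a gap of -1.26 ± 0.09 (adjusted p = 2.83e-06). Tnr, the matrix protein tenascin-R, had 267, 712 and 1363 CPM in Dexa, 160, 538, 1101 and 1077 in Ctr and 65.8, 208, 430 and 427 in IFNg. The gap was -1.83 ± 0.08 (adjusted p = 5.95e-08), most of it on the IFN-γ side, with groups that overlapped across replicates. Gria2, an AMPA receptor subunit, showed a smaller gap of -0.66 ± 0.07 (adjusted p = 6.08e-05) and kept the opposite-direction call in 2 of the 11 leave-outs, and Mfsd2a, a lysophospholipid transporter, one of -1.83 ± 0.08 (adjusted p = 1.06e-07).

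Of the 15 genes that rose with IFN-γ and fell with Dexa, 6 are described next. Uaca, linked to apoptosome function, had 24.2, 16.1 and 13.4 CPM in Dexa, 29.5, 21.0, 13.0 and 15.7 in Ctr and 134, 88.0, 49.9 and 71.2 in IFNg. IFNg was above every other library, Dexa and Ctr overlapped, and the gap was 2.42 ± 0.07 (adjusted p = 2.06e-09), with only -0.33 ± 0.07 of it from Dexa. The opposite-direction call of Uaca held in just 1 of the 11 leave-outs. Litaf, a protein of endosomal and lysosomal membranes, had 28.1, 26.5 and 15.4 CPM in Dexa, 43.4, 32.7, 23.2 and 21.2 in Ctr and 82.0, 58.5, 45.4 and 45.5 in IFNg. Again IFNg stood above both other groups, which overlapped across replicates, and the gap was 1.41 ± 0.09 (adjusted p = 1.12e-06), with the opposite-direction call in 4 of the 11 leave-outs.

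Gap43, a growth cone protein, stood at 131, 113 and 88.4 CPM in Dexa, 214, 188, 138 and 160 in Ctr and 372, 246, 185 and 195 in IFNg, a gap of 1.25 ± 0.09 (adjusted p = 3.63e-06). Dexa libraries were below all Ctr libraries, whereas Ctr and IFNg overlapped across replicates. Lgals1, galectin-1, had 120, 49.4 and 21.3 CPM in Dexa, 158, 78.4, 40.1 and 41.8 in Ctr and 369, 105, 54.7 and 65.6 in IFNg, a gap of 1.403 ± 0.14 (adjusted p = 4.04e-05), with replicate 1 well above the rest in every group and the opposite-direction call in 4 of the 11 leave-outs. Slc25a13, the mitochondrial aspartate-glutamate carrier citrin, went from a mean of 5.58 CPM in Dexa to 8.84 in Ctr and 13.9 in IFNg with no overlap. Adam19, a membrane metalloprotease, had means of 22.97, 30.6 and 44.3 CPM in the same order. Their gaps were 1.37 ± 0.11 and 1.02 ± 0.08.

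Dexa replicate 3 took no part in the choice of these genes and lists 29 of the 92 whole, while Ctr and IFNg replicate 3 were in the fit. Levels of replicate 3 below are scaled on the genes listed whole. In replicate 3 Dexa differed from Ctr in the direction of the fit for 29 of the 29 genes, against 59.2% of the 6482 tested genes listed whole. The same held for 87 of the 87 genes called for Dexa against Ctr, whichever way IFN-γ moved them. Ctr lay between the 2 treatments for 28 of the 29, against 51.7% of the genes called for Dexa and 39.7% of all tested genes listed whole. Ctr and IFNg replicate 3 helped to choose the 29 for opposite changes, and the compared genes were not so chosen. The contrast between these shares therefore restates part of the choice. The exception among the 29 was Arvcf, a catenin family member, whose IFNg replicate 3 was 0.09 above Ctr replicate 3 on the log2 scale. Gpd1 had 232 CPM in Dexa, 71.6 in Ctr and 42.2 in IFNg, Synpo2l 65.8, 8.57 and 2.31, and Litaf 48.6, 58.1 and 116. Slc38a2, an amino acid transporter, showed the smallest Dexa difference in replicate 3, 0.05, against 0.43 in the fit.

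**Figure D3:**
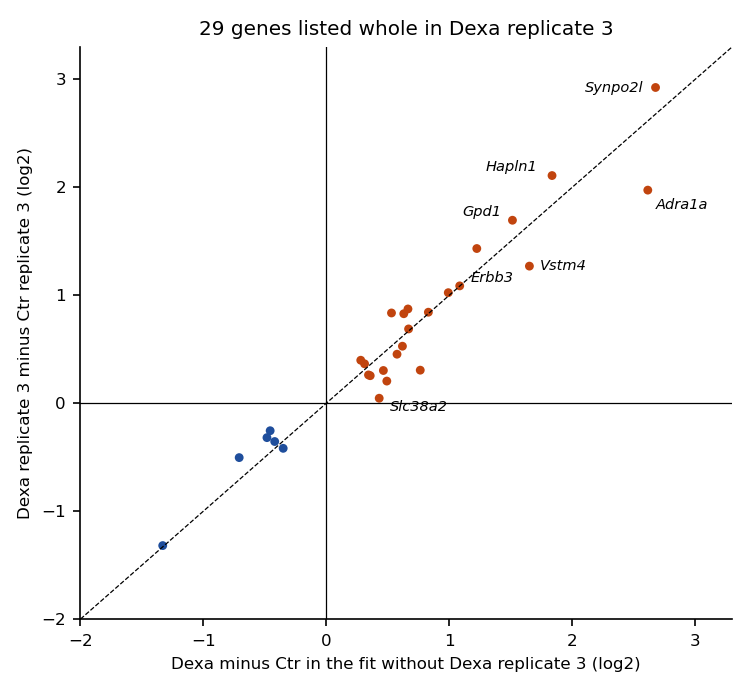
Log2 difference between Dexa and Ctr in replicate 3 alone (y axis) against the fold change of the fit without Dexa replicate 3 (x axis), for the 29 genes called in opposite directions that this library lists whole. All 29 points lie in the upper right or lower left, near the dashed line of equal values, with Slc38a2 closest to 0.

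In replicate 3 the match was looser over the wider set of genes with Ctr between the treatments. Of 1584 such genes listed whole, Dexa differed from Ctr in the direction of the fit in 73% and the gap had the same sign in 97%, against 79.8% of all genes listed whole. Of all 2140 genes called between IFNg and Dexa and listed whole, the shares were 68.7% and 97.4%. The sign of the gap thus held no more often in the wider set than in called genes at large. Ctr lay between the treatments in replicate 3 in 69.4% of the 1584 genes and in 62.2% of the 2140.

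The naming rule ranked that wider set by the smaller of the 2 fitted changes, and it picked genes with almost no reads outside IFNg, whose rank is set by the floor and carries no order. Apol9a, an apolipoprotein L family gene whose reads cannot be told from its close copy Apol9b with certainty, had 15.3, 12.8, 10.3 and 9.20 CPM in IFNg and 0 in all 3 Dexa libraries. IFNg was at least 108.5-fold higher than Dexa, taking the floor as 3 reads per library. Tnfsf10, the death ligand TRAIL, had 22.7, 11.4, 6.26 and 12.6 CPM in IFNg and 0 in Dexa, at least 121-fold higher. Casp4, an inflammatory caspase, Slfn2, a Schlafen gene, and Oas1g, of the 2-5A synthetase family, were at 0 in Dexa and at least 12.4-fold, 17.6-fold and 38.2-fold higher in IFNg. Because Ctr was also at or under the floor for Tnfsf10, Casp4, Slfn2 and Oas1g, no Dexa change can be stated for these. The floor held in both Ctr and Dexa for 29 genes of the wider set.

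Others picked by this rule did have reads in Ctr. Htr5b, a serotonin receptor gene, had 0.159, 0.102 and 0 CPM in Dexa, 0.216, 0.433, 0.166 and 0.229 in Ctr and 4.12, 2.71, 0.904 and 2.18 in IFNg. No groups overlapped, but the Dexa change of -1.76 ± 0.57 did not pass the test (adjusted p = 0.244). Gm12185, an interferon-inducible GTPase gene, stood at 75.0, 86.4, 88.7 and 93.4 CPM in IFNg and at most 0.0509 in Dexa, at least 783-fold higher. The lincRNA 9330175E14Rik was at least 181-fold higher in IFNg than in Dexa. Tcerg1l and Tekt4, a tektin of cilia and flagella, were higher in Dexa, with gaps of -3.37 ± 0.65 and -4.47 ± 0.52. Tcerg1l had 61, 12 and 18 reads in Dexa replicates 1, 2 and 4 and 8, 16, 20 and 6 in Ctr. Neither its Dexa nor its IFN-γ change against Ctr passed in DESeq2 with the block (adjusted p = 0.0924 and 0.127). Tekt4 had 5.76, 0.992 and 1.37 CPM in Dexa against at most 0.269 in IFNg.

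Most of the widest gaps towards Dexa lay on the Dexa side. Fam107a, an actin-bundling stress-response gene, had 42.8, 39.6 and 26.6 CPM in Dexa, 0.216, 0.226, 0.166 and 0.131 in Ctr and 0, 0.196, 0.104 and 0.115 in IFNg. Dexa stood apart, Ctr and IFNg overlapped, and the gap was -8.38 ± 0.29 (adjusted p = 1.02e-08). Hif3a, a hypoxia-inducible factor subunit, had 27.3, 15.2 and 15.5 CPM in Dexa and at most 0.329 in IFNg, a gap of -6.62 ± 0.33 (adjusted p = 1.8e-07). Cd101, an immunoglobulin superfamily gene, had 0.477, 1.76 and 2.36 CPM in Dexa and at most 0.174 in IFNg, a gap of -5.03 ± 0.46. Gm42656, a predicted transcript, differed through IFN-γ, with at most 0.115 CPM in IFNg, 0.405 to 1.37 in Ctr and 0.731 to 1.37 in Dexa.

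Towards IFNg the rule of the largest fitted difference picked Tnfsf10, Apol9a, Gm12185, Ifi47, Tgtp1 and Gm49730. Only Ifi47 and Tgtp1 of these have a measured gap, and the others have lower bounds that cannot be ranked against it. Ifi47, an interferon-induced GTPase, had 445, 568, 524 and 547 CPM in IFNg and 0.509, 0.254 and 0.263 in Dexa, a gap of 10.50 ± 0.23 (adjusted p = 2.93e-10). Tgtp1 reached 1017 to 1229 CPM against 0.585 to 0.890 in Dexa, a gap of 10.43 ± 0.27, though its reads may be shared with the near-identical Tgtp2. Gm49730, a predicted transcript, was at 0 in all Ctr and Dexa libraries and at 4.30 to 5.81 CPM in IFNg, at least 46-fold higher than Dexa.

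For 1381 genes only the direct comparison passed in edgeR, and neither treatment was called against Ctr. Among the 5 with the smallest adjusted p that met the naming rule were Tbc1d5, Zdhhc22, Sema3a and Wnk4. Tbc1d5, a regulator of endosomal transport, had 43.4, 62.4 and 64.2 CPM in Dexa, 39.6, 45.8, 54.0 and 51.2 in Ctr and 35.4, 41.0, 48.7 and 44.7 in IFNg. The groups overlapped across replicates, and the gap was -0.47 ± 0.07 (adjusted p = 0.00051), with adjusted p of 0.068 for IFNg and 0.0658 for Dexa against Ctr. Sema3a, a repulsive guidance protein, was higher in IFNg by 0.79 ± 0.12 (adjusted p = 0.000651). Zdhhc22, a palmitoyltransferase, and Wnk4, a kinase of ion transport, were higher in Dexa by gaps of -1.20 ± 0.18 and -1.37 ± 0.21. Each of these 4 had its estimates on opposite sides of Ctr. DESeq2 with the block did call the Dexa changes of Sema3a, Tbc1d5 and Zdhhc22 (adjusted p = 0.00561, 0.0157 and 0.0269) and the IFN-γ change of Sema3a (adjusted p = 0.0374).

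Only 30 genes were called in all 3 comparisons with both treatments moving them the same way. Kcna4, a voltage-gated potassium channel, had 1.38, 1.96, 2.10 and 2.56 CPM in Ctr, 4.83, 4.68 and 4.41 in Dexa and 5.20, 9.03, 10.3 and 14.3 in IFNg. Both treated groups were above Ctr, and IFNg exceeded Dexa by 0.91 ± 0.23 (adjusted p = 0.0108). D430036J16Rik, an antisense transcript, rose with both and further with IFN-γ, by a gap of 0.98 ± 0.25, while the lincRNA Gm26581 rose with both and further with Dexa, by -1.12 ± 0.38 (adjusted p = 0.0465). The direct difference of Kcna4 and of D430036J16Rik did not pass without Dexa replicate 2 (adjusted p = 0.062 and 0.0582) or without Dexa replicate 4 (adjusted p = 0.0548 and 0.062), nor did that of D430036J16Rik without IFNg replicate 2 (adjusted p = 0.0614). The difference of Gm26581 passed only when Dexa replicate 4 or Ctr replicate 4 was the library left out, with adjusted p up to 0.257 for the rest. Lcn2, lipocalin-2, had 1.11, 3.49 and 0.263 CPM in Dexa, while only 1 of the 4 IFNg libraries, replicate 2 with 0.950, was above 0.0763. In Ctr it had 0.0565 CPM in replicate 2 and 0 in the others.

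**Figure D4:**
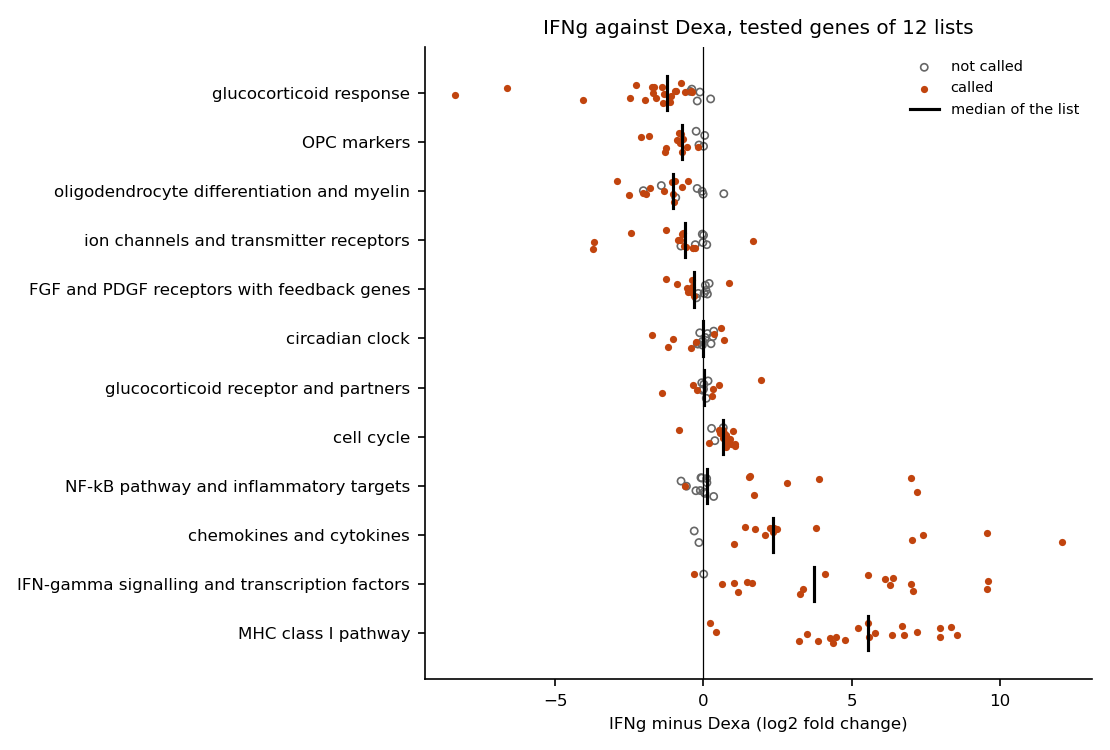
Log2 fold change of IFNg against Dexa for the tested genes of 12 gene lists, with filled points for genes that passed the test, open points for those that did not and a black bar at each list's median. The glucocorticoid response lies to the left with a median of -1.23, the MHC class I pathway and IFN-γ signalling to the right with medians of 5.54 and 3.73, and the circadian clock straddles 0.

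Of 26 tested genes of the glucocorticoid response, 21 were lower in IFNg than in Dexa and 0 were higher (0 also at an unadjusted p under 0.05 in edgeR and 0 by DESeq2), with a median of -1.23, against -0.03 over all tested genes. Over all tested genes 16.7% were lower in IFNg than in Dexa. Dexa raised 16 of the 26 over Ctr, where 1.24% of all tested genes rose with Dexa. The list was drawn up with earlier results of these data known, so these counts describe it and are no independent support. IFN-γ lowered 8 and raised 4, where 15.9% and 15.1% of all tested genes moved so, and the share raised was near that background. The makings of the gap differed between the genes described next. Fkbp5, a co-chaperone of the receptor, had 137, 121 and 102 CPM in Dexa, 52.1, 46.3, 37.2 and 37.7 in Ctr and 55.9, 44.3, 38.8 and 35.4 in IFNg. Dexa stood alone, and IFNg differed from Ctr by 0.00 ± 0.06. Per1, a clock repressor, behaved alike, with 33.7 to 36.2 CPM in Dexa and 7.65 to 11.7 in IFNg. The transcription factor Klf9 and the metallothionein Mt2 rose with both treatments, by 1.29 ± 0.07 and 1.63 ± 0.15 with Dexa and by 0.38 ± 0.06 and 0.87 ± 0.14 with IFN-γ. Sgk1, a kinase, fell with IFN-γ by -0.84 ± 0.12, and its Dexa difference of 0.54 ± 0.13 did not pass in edgeR (adjusted p = 0.0986) but did in DESeq2 with the block (adjusted p = 0.00371). Tsc22d3, which encodes GILZ, had a gap of -0.39 ± 0.16 that did not pass the test (adjusted p = 0.0843).

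The receptor for dexamethasone itself did not differ detectably. Nr3c1 had 79.5, 83.2 and 91.8 CPM in Dexa, 90.4, 92.2, 95.99 and 98.8 in Ctr and 88.4, 84.6, 72.7 and 87.9 in IFNg, a gap of 0.00 ± 0.07 (adjusted p = 0.983). Nr3c2, the mineralocorticoid receptor, which also binds glucocorticoids, was higher in IFNg. It had 2.51, 2.42 and 1.68 CPM in Dexa, 2.13, 2.51, 1.31 and 1.998 in Ctr and 4.30, 8.86, 10.3 and 11.9 in IFNg, a gap of 1.95 ± 0.35 (adjusted p = 0.00185). All IFNg libraries were above all others. Of the 13 tested genes of the receptor, its chaperones and coregulators, 4 were higher and 3 lower in IFNg, where 16.4% and 16.7% of all tested genes were. The co-chaperone Ptges3, by 0.54 ± 0.07, and Fkbp5, by -1.41 ± 0.06, were among them.

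Of 18 clock genes, 3 were higher and 5 lower in IFNg than in Dexa, where 16.4% and 16.7% of all tested genes were, so the share of higher genes was near that background. Per2, another clock repressor, had 29.7, 21.3 and 18.0 CPM in Dexa, 16.4, 17.6, 14.6 and 14.0 in Ctr and 13.3, 10.9, 9.25 and 9.65 in IFNg. The groups were apart, with a gap of -1.04 ± 0.11 (adjusted p = 4.98e-05). Nr1d2, which encodes the repressor REV-ERBβ, fell with Dexa by -0.81 ± 0.14 and was higher in IFNg by 0.70 ± 0.14 (adjusted p = 0.00332). Arntl, encoding BMAL1, was lower in IFNg by -0.26 ± 0.07 (adjusted p = 0.0207), a call lost without Dexa replicate 2 (adjusted p = 0.153) or IFNg replicate 2 (adjusted p = 0.0947).

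The interferon lists parted almost wholly through IFN-γ. Of 18 genes of IFN-γ signalling 16 were higher in IFNg than in Dexa and 1, the receptor chain Ifngr1, was lower, with a median of 3.73. Over all tested genes 16.4% were higher and 16.7% lower. Irf1, described above with its promoter, was among the 16. The 15 interferon-induced GTPases and the 21 MHC class I genes tested were without exception higher in IFNg, with medians of 10.01 and 5.54, although copies within the Gbp, Tgtp and H2 families share sequence. B2m, the light chain of MHC class I, had 21.8, 21.3 and 17.4 CPM in Dexa and 936, 1080, 1293 and 1273 in IFNg. The 6 tested genes of the MHC class II pathway were all higher, among them its invariant chain Cd74 at 51.5 to 82.8 CPM against at most 0.105 in Dexa, at least 635-fold. Against Ctr, 0 genes of these 4 lists were called for Dexa in edgeR's fit and 0 by DESeq2, and 1, in the MHC class I list, had an unadjusted p under 0.05. Over all tested genes edgeR called 1.5% for Dexa, so 0 calls here are near that share.

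Of 15 tested chemokines and cytokines 13 were higher in IFNg, where 16.4% of all tested genes were, with a median of 2.33. Cxcl10, a chemokine for activated T cells, had 345, 178, 64.8 and 184 CPM in IFNg and 0.286, 0.229 and 0.473 in Dexa, a gap of 9.57 ± 0.21. Of 19 NF-kB pathway genes and inflammatory targets 7 were higher and 1 lower, with a median of 0.11. Over all tested genes 16.4% were higher and 16.7% lower. The lower gene of the NF-kB list was Nfkbia, the inhibitor IκBα, a known glucocorticoid target, with 20.2, 18.4 and 16.1 CPM in Dexa and 12.2, 12.3, 10.99 and 9.92 in IFNg. The gap was -0.62 ± 0.10 (adjusted p = 0.00108), and the Dexa difference of 0.43 ± 0.10 over Ctr did not pass in edgeR (adjusted p = 0.0797) but did in DESeq2 with the block (adjusted p = 0.0233). Of 9 tested complement genes 5 were higher in IFNg, where 16.4% of all tested genes were.

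Lineage genes were lower in IFNg. Of 16 OPC markers 12 were lower and 0 higher (0 also at an unadjusted p under 0.05 in edgeR and by DESeq2), with a median of -0.73, and IFN-γ lowered 13 of them against Ctr while Dexa raised 2, Cspg4 and Tnr. Over all tested genes 16.7% were lower in IFNg than in Dexa and 16.4% higher. Against Ctr 15.9% fell with IFN-γ and 1.24% rose with Dexa. Pdgfra, the PDGF receptor α used for the microbead selection, had 1481, 3465 and 3261 CPM in Dexa and 560, 1770, 2300 and 2392 in IFNg, a gap of -0.91 ± 0.16 (adjusted p = 0.00164). C1ql1, a secreted C1q-like protein, showed the widest gap of the list, -2.10 ± 0.17. Fewer OPCs and less RNA of these genes per cell cannot be told apart in bulk libraries. Of 19 tested genes of oligodendrocyte differentiation and myelin 12 were lower and 0 higher, again 0 at an unadjusted p under 0.05 in edgeR and by DESeq2, with a median of -1.04. Dexa against Ctr gave 0 calls there by edgeR and DESeq2, near the 1.5% that edgeR called over all tested genes. In edgeR 2 genes of the list had an unadjusted p under 0.05, 1 in each direction. Bmp4, a secreted growth factor, had a gap of -2.93 ± 0.84 in edgeR (adjusted p = 0.0224) that DESeq2 with the block did not call (adjusted p = 0.16). Its levels in Dexa and IFNg were 0.0318 and 0.0299 CPM in replicate 1, 0.865 and 0.895 in replicate 2, and 14.7 and 0.305 in replicate 4, so among the fitted pairs only replicate 4 differed. In replicate 3, whose Dexa library is not in the fit, Bmp4 had 91 reads in Dexa and 4 in IFNg. The edgeR fit with Dexa replicate 3 gave a gap of -3.18 (adjusted p = 0.007).

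Of 19 cell cycle genes 15 were higher in IFNg than in Dexa and 1, the inhibitor Cdkn1c, was lower, with a median of 0.67. Over all tested genes 16.4% were higher and 16.7% lower. Top2a, a topoisomerase of dividing cells, had 829, 620 and 267 CPM in Dexa and 1087, 1184, 911 and 896 in IFNg, a gap of 1.06 ± 0.20 (adjusted p = 0.0022). Mcm5, of the replicative helicase, differed by 0.92 ± 0.17 and Cdk1, the mitotic kinase, by 0.80 ± 0.16. The inhibitors Cdkn1a and Cdkn2a were among the higher genes, by 0.98 and 1.07. For Dexa against Ctr 0 of the 19 were called by edgeR or DESeq2, and 0 had an unadjusted p under 0.05. In edgeR 1.5% of all tested genes were called for Dexa, so 0 calls in a list of this size are near that share.

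Of 17 genes of FGF and PDGF receptors with their feedback 1 was higher and 9 lower in IFNg, where 16.4% and 16.7% of all tested genes were. Fgfr3 had 140, 78.8 and 58.3 CPM in Dexa and 42.2, 28.1, 20.9 and 32.2 in IFNg, a gap of -1.26 ± 0.18. Of 20 ion channels and transmitter receptors 13 were lower and 1 higher, against the same shares. Cftr, a chloride channel, differed through Dexa, with 4.13, 2.29 and 2.57 CPM in Dexa, 0.164 to 0.353 in Ctr and 0.179 to 0.305 in IFNg. Grin2c, an NMDA receptor subunit, had 7.95, 1.96 and 0.840 CPM in Dexa and 0.0382 to 0.418 in IFNg. Its estimates lay below Ctr with both treatments, further with IFN-γ. The main fit called 1 of these 20 genes lower with Dexa, and DESeq2 with the block called 2. The Dexa values of Grin2c given next are from fits other than the main one. In the edgeR fit with Dexa replicate 3 Grin2c changed by -4.69 with IFN-γ and by -0.95 with Dexa (adjusted p = 0.0369 for Dexa). DESeq2 with the block, without that library, also called the Dexa fall (adjusted p = 0.0251). Gria1, an AMPA receptor subunit, was the higher one, by 1.67 ± 0.23, whereas its partner Gria2 was lower. Of 14 tested genes of lipid and energy metabolism 1 was higher and 2 were lower, Gpd1 among them, shares no larger than the 16.4% and 16.7% over all tested genes.

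Markers of other cells are set against all tested genes, of which 16.4% were higher and 16.7% lower in IFNg than in Dexa. Of 4 tested microglia and macrophage markers 0 differed by edgeR or DESeq2, and 0 had an unadjusted p under 0.05 in edgeR. Of 9 astrocyte markers 3 were higher and 3 lower in IFNg. Gfap, the astrocyte filament protein, had 1.02, 4.35 and 1.47 CPM in Dexa, 0.594, 1.22, 0.125 and 0.491 in Ctr and 11.6, 10.1, 5.18 and 7.48 in IFNg, a gap of 2.33 ± 0.37 (adjusted p = 0.000897). Of 7 tested neuron markers 2 were higher and 3 lower, with Tubb3, a tubulin, higher by 1.30 ± 0.21 and Snap25, of the vesicle fusion machinery, lower by -1.14 ± 0.12. Of 9 tested endothelial, mural and fibroblast markers 1 was higher and 3 lower, and the share of higher genes was no larger than over all tested genes. The part of these cells in the gaps above was not tested.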

How the data were processed

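RNA-seq was made from cultured OPCs of 3 groups, 4 libraries each. The authors quantified transcripts from filtered reads with Salmon 0.8.2, and the submitters' processing notes also name STAR and DESeq2. The deposited tables give estimated counts and TPM per transcript, per the file headers. TPM was not used. Here estimated counts were summed per gene (Ensembl 96), rounded, and kept at 10 or more reads in at least 3 libraries. Estimated counts of near-identical copies are uncertain. Testing used edgeR 4.0.16 (R 4.3.3) quasi-likelihood fits with TMM scaling, group and replicate number as terms, and Benjamini-Hochberg adjustment over all tested genes with a threshold of 0.05. The alternatives were DESeq2 1.42.0, no block, other filters, other scaling and leaving out each library. The fitting code was tested on simulated data. Figures used Python 3.11.15 and matplotlib 3.10.9.

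Pairing by replicate number was set before the fit. As a check, same-numbered libraries deviated from their group means together, with correlations of 0.408 to 0.731. Differently numbered libraries gave -0.629 to 0.513, the highest being Ctr replicate 3 with Dexa replicate 4, so the numbers do not separate fully. Deviations within a group cancel by construction, which pulls the correlations of differently numbered libraries down. Libraries of a group are cultures from different litters. Reads in genes numbered 19209063 to 52074652, and intervals for floors cover counting error only. Dexa replicate 3 lists 47855 of 141862 transcripts (33.73%), with 19130 genes whole, and was left out of the fit. Log2 values of single libraries used a pseudocount of 0.1 CPM.

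The members and lists were chosen with earlier results of these data known. Genes with a mean of at least 1 CPM in the highest group were named by fixed rules: the 12 with Ctr between the treatments and the largest smaller change, the 6 widest differences each way, the 5 smallest adjusted p among genes called only directly, the 4 called in all comparisons with the same sign, and examples from the lists. The 12 opposite-direction genes with the largest smaller change were added after values were seen. A few genes that these rules pick are not reported here.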

Additional observations from a re-analysis of the deposited data

Results flagged for a closer look

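Single libraries stood far from the other 3 of their group in 9 of 136 groups checked over 72 named genes, by Dixon's ratio of the gap to the whole range. Chance alone marks about 1 in 20 groups. IFNg replicate 1 was high for Hif3a (ratio 0.859, 0.329 CPM against 0.0763 to 0.112), Adam19 (ratio 0.889, 69.8 CPM against 34.1 to 38.0), Agt (ratio 0.931, 3.79 CPM against 0.649 to 0.867) and Lgals1 (ratio 0.839, 369 CPM against 54.7 to 105). Ctr replicate 1 was also high for Agt (ratio 0.857, 6.94 CPM against 1.39 to 2.19). IFNg replicate 2 was high for Lcn2 (ratio 0.920, 0.950 CPM against 0 to 0.0763) and low for Synpo2l (ratio 0.936, 0.587 CPM against 0.904 to 0.926). IFNg replicate 3 was high for Casp4 (ratio 0.888, 1.63 CPM against 1.26 to 1.30) and Cd101 (ratio 0.930, 0.174 CPM against 0.0280 to 0.0382).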

How the results depend on the processing

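Counts depended most on the replicate block. With no replicate block, edgeR called 1576 genes for IFNg against Dexa, 1555 for IFNg against Ctr and 24 for Dexa against Ctr, 1070 genes had Ctr between the treatments and 3 were called in opposite directions. DESeq2 with no replicate block gave 2372, 2328, 100, 1644 and 15. DESeq2 with the replicate block gave 456 calls for Dexa against Ctr and 150 in opposite directions, and no count filter gave 642 and 207. Using only IFNg and Dexa of replicates 1, 2 and 4 left 4035 calls. Over the genes that Dexa replicate 3 lists whole, where fewer genes were tested, the counts were 2443, 2068, 122, 1815 and 45 with that library and 2120, 1983, 69, 1571 and 22 without it, the latter chosen after seeing the data. Leaving out each library gave 4136 to 6132 calls for IFNg against Dexa, 4133 to 5952 for IFNg against Ctr, 78 to 399 for Dexa against Ctr, 3156 to 4576 with Ctr between and 23 to 136 in opposite directions. Apart from construction, the cause was not tested. Of 70 named genes called, 66 kept the call in all 18 settings with the block, and Gm26581, Arntl, D430036J16Rik and Kcna4 did not. With no replicate block 25 lost it, and 19 did so in DESeq2. Of called named genes 0 changed sign. Nr3c1, not called, changed sign at -0.024 with no replicate block, -0.017 in DESeq2 with no block, and 3 times among the leave-outs, which ranged from -0.045 without IFNg replicate 1 to 0.049 without IFNg replicate 3 (-0.037 without Dexa replicate 1, -0.00047 without IFNg replicate 2). Low counts limit genes near the floor of 3 reads.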
